A study of Mus musculus with 12 samples.

Results

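The 39 genes described here encode the enzymes and transporters that take up glucose, split it to pyruvate, turn pyruvate into lactate and export it, or divert glucose 6-phosphate into the pentose phosphate pathway, together with 2 genes at the entry to the mitochondrial pathway, Pdk1 and Pdha1. They were taken by symbol from a fixed list, and all 39 matched an Entrez ID among the 27179 IDs counted. RNA came from NIH3T3 cells, an immortalized line of mouse embryonic fibroblasts, that were RelA-/- and carried a RelA-DsRed fusion (RelA, or p65, is a subunit of the transcription factor NF-κB), at no more than 20 passages. Every library described was of such cells after 2 h with IL-1β at 0.2 ng/mL in a microfluidic device, with 3 libraries of 17254518, 18091073 and 18578859 counts. The tables labelled LPS, PAM and media, 9 in all, were byte for byte the table of IL-1 replicate 3, so no stimulus could be compared with media, and the levels below do not show what IL-1β changed. Nothing in the labels tells whether each library had its own culture, so the spread among the 3 may be technical.

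Glycolysis converts glucose to pyruvate in the cytosol and yields ATP and NADH. Many of its steps are run by one of several isozymes, encoded by separate genes with different tissue ranges: muscle, liver, brain and testis each have forms of their own. Lactate dehydrogenase regenerates NAD from NADH, monocarboxylate transporters carry lactate across the plasma membrane, and the pentose phosphate pathway makes NADPH and ribose phosphate. Genes of glycolysis have also spread through the mouse genome as processed pseudogenes, copies of the mRNA that were reverse transcribed and inserted elsewhere, and reads that match such a copy equally well may be lost or misplaced in counting.

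Fibroblast identity was checked with 12 markers, of which 11 reached 1 CPM (the read count scaled to a common library total) in every library, with a summed level of 9535 to 9811 CPM. Except for Snap25, each listed marker of tissues that use the other isozymes had a mean below 31.3 CPM. That was the median over all 11224 genes at 1 CPM or more in every library. None of 8 hepatocyte markers reached 1 CPM in every library, and 6 of them, including Alb, had no count (summed level 0 to 0.108 CPM). Of 9 skeletal muscle markers, Tnni2 and Tnnt3 did, with a summed level of 4.93 to 7.48 CPM over the list and no count of Myog. Of 8 neural markers, Snap25 alone did, at 94.8 ± 5.10 CPM (SD, n = 3), while the summed level of the list was 89.8 to 98.9 CPM and Nefl had no count. Of 8 leukocyte markers, 4 did, with a summed level of 18.2 to 27.6 CPM, and Spi1 had no count. Over all gene IDs 41.3% reached 1 CPM in every library, and 51.1% of the protein-coding ones did. The leukocyte count is near that share, so it says little on its own. In bulk libraries a few cells of another type and a low level in every cell cannot be told apart.

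The reading of isozyme levels rests on how far the sequences can be told apart, so some coding stretches are shown first. Among 23 pairs of isozymes, coding sequences were 59.8% to 77.8% identical, and the longest stretch without a difference was 36 bases, between Pfkfb2 and Pfkfb4. No pair shared a run of 50 bases. The enolases illustrate this at the stretch around the longest identical run of Eno1 and Eno3, shown 5′ to 3′ for coding positions 320 to 379 of each, with bases that differ from Eno1 in capitals:
Eno1: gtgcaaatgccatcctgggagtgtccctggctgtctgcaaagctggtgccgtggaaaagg
Eno2: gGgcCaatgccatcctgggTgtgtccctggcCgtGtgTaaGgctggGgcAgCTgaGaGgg
Eno3: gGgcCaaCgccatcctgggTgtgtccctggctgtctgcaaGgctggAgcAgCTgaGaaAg
The window lies in exon 6 of each transcript used (GENCODE M21, GRCm38, the assembly of mm10), at chr4:150244250-150244309 on the plus strand for Eno1, chr6:124766596-124766655 on the minus strand for Eno2 and chr11:70659037-70659096 on the plus strand for Eno3. Eno2 differed from Eno1 at 13 of 60 bases and Eno3 at 11 of 60.

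Lactate dehydrogenase is shown the same way, in the stretch around the longest run shared by its subunits, with bases of Ldhb that differ from Ldha in capitals:
Ldha: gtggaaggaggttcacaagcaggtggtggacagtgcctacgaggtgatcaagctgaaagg
Ldhb: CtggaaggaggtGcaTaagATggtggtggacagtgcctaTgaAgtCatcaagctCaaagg
These 60 bases cross from exon 6 to exon 7 in both genes, on the plus strand of chromosome 7 between 46851962 and 46854009 for Ldha and on the minus strand of chromosome 6 between 142492590 and 142494132 for Ldhb. They differ at 9 of 60 bases, although overall identity was 73.0% over 986 aligned bases.

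Copies elsewhere in the genome were another matter. Each 50-base word of a member's coding sequence was looked up in the transcripts of all other loci of GENCODE M21, pseudogenes included, on either strand. Of the 39 members, 26 shared no coding word with another locus and 13 shared some. More than 50% of the coding words were shared for 4 members, namely Pgk1 (100.0%), Pgam1 (100.0%), Gapdh (94.2%) and Eno1 (83.3%). Among 10698 genes that reached 1 CPM in every library and had a coding transcript, 4.41% passed the same share. Of these genes, 82.1% shared no coding word. The 39 members include 7 that did not reach 1 CPM in every library, and none of the 7 shares a coding word. The sets are thus not chosen alike. The coding word held by the most other loci is shown for Gapdh, Pgam1 and Eno1:
Gapdh: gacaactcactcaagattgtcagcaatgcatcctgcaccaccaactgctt
Pgam1: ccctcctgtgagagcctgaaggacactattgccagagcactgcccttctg
Eno1: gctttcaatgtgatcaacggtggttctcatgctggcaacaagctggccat
The Gapdh word (exon 4, chr6:125162898-125162947, minus strand) was found at 84 other loci. That of Eno1 (exon 7, chr4:150245115-150245164, plus strand) was found at 5, and that of Pgam1 (exon 3, chr19:41916679-41916728, plus strand) at 3. Over its whole mRNA, Gapdh shared at least 1 word with 222 loci, 213 of them annotated as pseudogenes, whereas Ldha did with 14, Pkm with 7 and Aldoa with 6. Gpi1 shared words with 121 loci, but only 3 of these were pseudogenes.

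In the 3 libraries, 32 of the 39 members reached 1 CPM in every library, against 41.3% of all gene IDs and 51.1% of the protein-coding ones. The members together took 0.763% ± 0.0182 (SD, n = 3) of all counts, and 4 of them, Aldoa, Pkm, Ldha and Tpi1, held 55.4% ± 0.202 of the members' share. The 32 detected members had a median of 109 CPM, beside 31.3 CPM over all 11224 detected genes, and a median of 27.0 CPM per kb beside 6.91. Levels per kb, used below to compare genes, are CPM divided by the length of the gene's merged exons, and ranks are among 10783 detected genes with a known length. The 7 members below 1 CPM in at least 1 library were Slc2a3, Slc2a4, Hk3, Aldoc, Pgam2, Pklr and Slc16a3, each a form of a step at which another member was detected. Counts this low give the level of a few reads and cover counting error only.

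**Figure D1:**
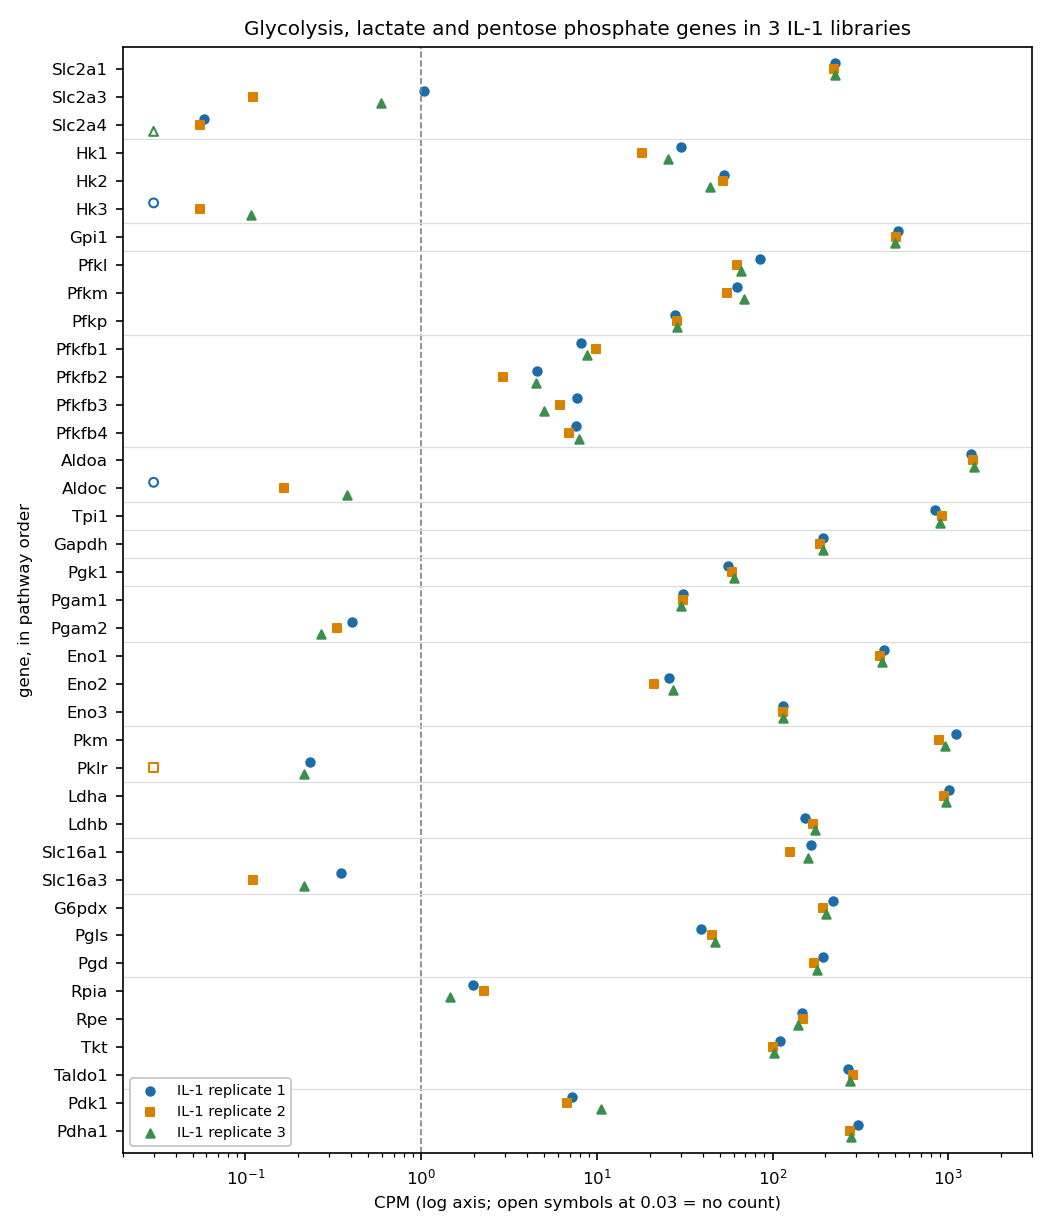
CPM (log axis) of the 39 genes in pathway order, 1 symbol per IL-1 library, open symbols at 0.03 for no count and a dashed line at 1 CPM. The 7 genes with a library left of the line are minor forms of their steps, and Aldoa, Pkm, Ldha and Tpi1 lie farthest right.

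Among the glucose transporters, Slc2a1 stood far above the other forms. Slc2a1 (chr4:119108745-119137330), which encodes the ubiquitous transporter GLUT1, had 228, 225 and 226 CPM in replicates 1 to 3, so its 3 libraries nearly coincided. Slc2a3, the high-affinity form typical of neurons, had 18, 2 and 11 counts, and Slc2a4, the insulin-responsive form of muscle and fat, had 1, 1 and 0. Per kb, Slc2a1 held 99.9% ± 0.100 (SD, n = 3) of the step. The ratio of its level per kb to that of Slc2a3 was 803, with an exact 95% Poisson interval of 566 to 1182 for counting error in Slc2a3 alone. The interval does not cover the spread between libraries, whose ratios were 451, 4209 and 787, and without replicate 1 the log2 ratio went from 9.65 to 10.37. Per kb of coding mRNA the ratio was 472.

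Hexokinases trap glucose in the cell as glucose 6-phosphate. Hk2, the regulated form of muscle and of many growing cells, was above Hk1, the housekeeping form, in every library: Hk2 had 53.1, 52.0 and 44.2 CPM. Hk1 had 30.1, 18.1 and 25.5 CPM, lowest in replicate 2. Hk3, a form of myeloid cells, had 0, 1 and 2 counts. The level of Hk2 per kb was 2.52, 4.11 and 2.48 times that of Hk1 in replicates 1 to 3. The ratio of the means, 2.90, became 1.42 per kb of coding mRNA, because the annotation gives Hk1 long merged exons (8532 bases, beside a coding mRNA of 3851).

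Gpi1, which converts glucose 6-phosphate to fructose 6-phosphate and has no second form on the list, had 517, 503 and 496 CPM. Phosphofructokinase, the committed step, is a tetramer built from 3 kinds of subunit, and all 3 were detected. Pfkl, the liver type, had 85.3, 62.5 and 66.0 CPM, highest in replicate 1. Pfkm, the muscle type, had 62.5, 54.7 and 68.7 CPM, so the ranges of these 2 overlapped before length was taken into account. Pfkp, the platelet type, was lower and nearly constant at 27.8, 28.6 and 28.5 CPM. The level per kb of merged exons put Pfkm first in every library, at 18.6 ± 2.09 against 10.7 ± 1.83 for Pfkl (SD, n = 3). This order is not secure: in CPM without length the ratio of Pfkm to Pfkl was 0.870, and per kb of the longest transcript it was 1.13, with Pfkl ahead in replicate 1.

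The Pfkfb genes encode enzymes that make and break fructose 2,6-bisphosphate, the activator of phosphofructokinase. All 4 were detected at low levels. Pfkfb1, known from liver and muscle, had 8.11, 9.89 and 8.77 CPM, and Pfkfb4 had 7.65, 6.96 and 7.91. Pfkfb3, the form with the highest kinase activity and an inducible gene in many cells, had 7.71, 6.19 and 5.01 CPM. Pfkfb2, the heart form, was lowest with 4.58, 2.93 and 4.52. No form dominated: Pfkfb1 held 43.2% ± 4.81 (SD, n = 3) of the step per kb and was 1.44 times Pfkfb4, a ratio that became 2.22 per kb of coding mRNA. Pfkfb1 came first in every library on this scale, in cells in which no hepatocyte marker reached 1 CPM in every library.

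Aldolase cleaves fructose 1,6-bisphosphate. Aldoa (chr7:126795234-126800994), the muscle and general form, had 1356, 1376 and 1409 CPM and the highest level per kb of all members, 474 ± 9.15 (SD, n = 3), which ranked 68 among all genes. Aldoc, the brain form, had 0, 3 and 7 counts. The per-kb ratio of Aldoa to Aldoc was 8554 (exact 95% Poisson interval 4651 to 17837 for counting error in Aldoc). It was 13725 per kb of coding mRNA, and without replicate 3, which holds 7 of the 10 Aldoc counts, its log2 value went from 13.06 to 14.17. Tpi1, which interconverts the triose phosphates and has no isozyme gene, had 837, 920.4 and 897 CPM and ranked 122 per kb, with a range that overlapped that of Ldha.

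The next 3 steps carried the members most like other loci, and they stood lower than their neighbours in the pathway. Gapdh (chr6:125161852-125166467), the step that reduces NAD, had 194, 186 and 195 CPM, and its level per kb, 46.4 ± 1.14 (SD, n = 3), lay far below the 321 ± 15.6 of Tpi1 just before it. Pgk1 (chrX:106187100-106203699), which makes the first ATP of the pathway, had 55.8, 59.0 and 60.1 CPM, and Pgam1 (chr19:41911871-41918665), the mutase that follows, 31.1, 30.8 and 30.0. These 3 genes hold 94.2%, 100.0% and 100.0% shared coding words, beside 13.7% in Tpi1 and 16.8% in Aldoa. Whether reads were lost to the copies was not tested, since the handling of reads with several matches is not given in the sources used here. If only the positions of the coding mRNA with an unshared 50-base word are counted as length, 117 positions in Gapdh, 569 in Pgk1 and 1010 in Pgam1, the levels per kb become 1639.7 ± 40.3, 102.5 ± 3.94 and 30.3 ± 0.558. On that scale Gapdh passes Aldoa (1064 ± 20.5) and Tpi1 (614 ± 29.7), while Pgk1 and Pgam1 stay below both. The scale divides all reads of a gene by its unshared positions alone. It is too high wherever reads from shared positions or other exons were also counted, and how many were was not tested. The place of Gapdh on it is therefore not secure. Only some of the copies were matched to a gene ID in the counts, and no copy of Pgk1 or Pgam1 with at least 50 shared words was. Of the Gapdh copies with a row of their own and at least 50 shared words, 3000002C10Rik had the most, with 61, 41 and 54 counts. Reads at the unmatched copies cannot be seen here.

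**Figure D2:**
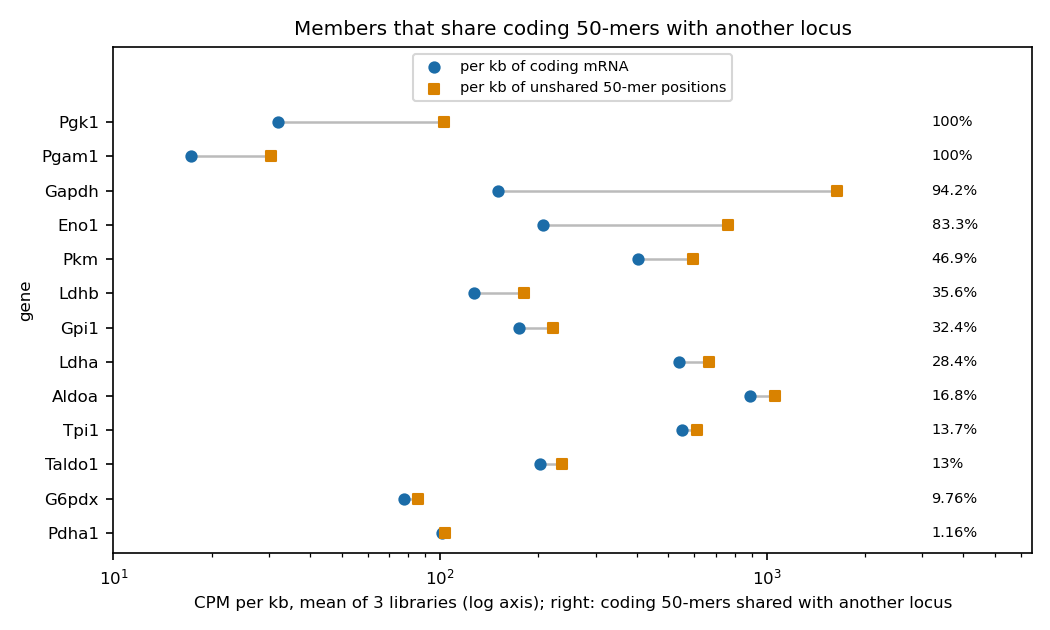
Mean CPM per kb (log axis) of the 13 genes that share coding 50-base words with another locus, per kb of coding mRNA (circles) and per kb of unshared positions (squares), with the shared percentage at the right. The widest gap is that of Gapdh, from 151 to 1639.7 CPM per kb. Both scales divide all reads of the gene, so the squares are too high where reads from other positions were counted.

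Pgam2, the muscle mutase, shares no word with another locus and had 7, 6 and 5 counts, so Pgam1 was 38.7 times higher per kb (exact 95% Poisson interval 24.5 to 65.2 for counting error in Pgam2), and 91.2 times in CPM without length. All 3 enolases were detected. Eno1, the general form, had 433, 407 and 421 CPM. Eno3, the muscle form (chr11:70653125-70662513), had 114, 114 and 114 CPM, with a coefficient of variation of 0.140% that is below the 2.21% expected from counting alone. Eno2, the neuronal form, had 25.8, 21.2 and 27.0 CPM. Per kb of merged exons Eno1 was 1.22, 1.15 and 1.19 times Eno3 in replicates 1 to 3. That ratio of the means, 1.19, was 2.84 per kb of coding mRNA, where the length of Eno1 falls from 5379 to 2027 bases, and it was 3.68 in CPM without length. Eno1 shares 83.3% of its coding words while Eno3 shares none, and per kb of unshared positions the levels were 764 ± 23.2 for Eno1 and 75.4 ± 0.105 for Eno3 (SD, n = 3), a log2 ratio of 3.34. As with Gapdh, all reads of the gene were divided by the unshared positions alone. Over the unshared positions of all transcripts the log2 ratio of Eno1 to Eno3 was only 0.72. Eno1 thus led on each of these scales, by an amount that the length decides. The Eno1 retrogene Eno1b had 4, 22 and 7 counts. Of the 9 muscle markers, Tnni2 and Tnnt3 were at 2.37 ± 0.00477 and 2.20 ± 1.07 CPM (SD, n = 3), and the other 7 were below 1 CPM in at least 1 library.

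Pyruvate kinase closes glycolysis. Pkm had 1106, 890.2 and 961 CPM, highest in replicate 1, and Pklr, the liver and red cell form, had 4, 0 and 4 counts. Counts per gene do not separate the PKM1 and PKM2 splice forms. Pkm was 4279 times Pklr per kb (exact 95% Poisson interval 2172 to 9911 for counting error in Pklr), and 7578 times per kb of coding mRNA. Pkm shares 46.9% of its coding words with other loci, while Pklr shares none. Over the unshared positions of the coding mRNA the log2 ratio went from 12.06 to 13.42. As with Gapdh, all reads of the gene were divided by those positions alone.

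Lactate dehydrogenase is a tetramer of A and B subunits. Ldha, whose subunit predominates in glycolytic tissues, had 1012, 947 and 977 CPM, and Ldhb, whose subunit predominates in heart, had 152, 169.9 and 174 CPM. Both were abundant, and the groups of 3 values did not overlap. In replicate 1 Ldha was at its highest and Ldhb at its lowest. Ldha held 73.7% ± 1.88 (SD, n = 3) of the step per kb of merged exons, a ratio of means of 2.81, which was 4.25 per kb of coding mRNA and 5.92 in CPM without length. Ldha shares 28.4% and Ldhb 35.6% of its coding words with other loci. The log2 ratio, 1.49 per kb of merged exons, was 1.88 over unshared positions of the coding mRNA. Over those of all transcripts it was lower, at 1.22. Lactate leaves the cell through monocarboxylate transporters. Slc16a1, which encodes MCT1, had 166, 125 and 159 CPM, lowest in replicate 2. Slc16a3, which encodes MCT4, the low-affinity exporter of glycolytic muscle, had 6, 2 and 4 counts, and Slc16a1 was 804 times higher per kb (exact 95% Poisson interval 460 to 1555 for counting error in Slc16a3). Bsg, the chaperone that carries both transporters to the membrane, had 810, 886 and 903 CPM.

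**Figure D3:**
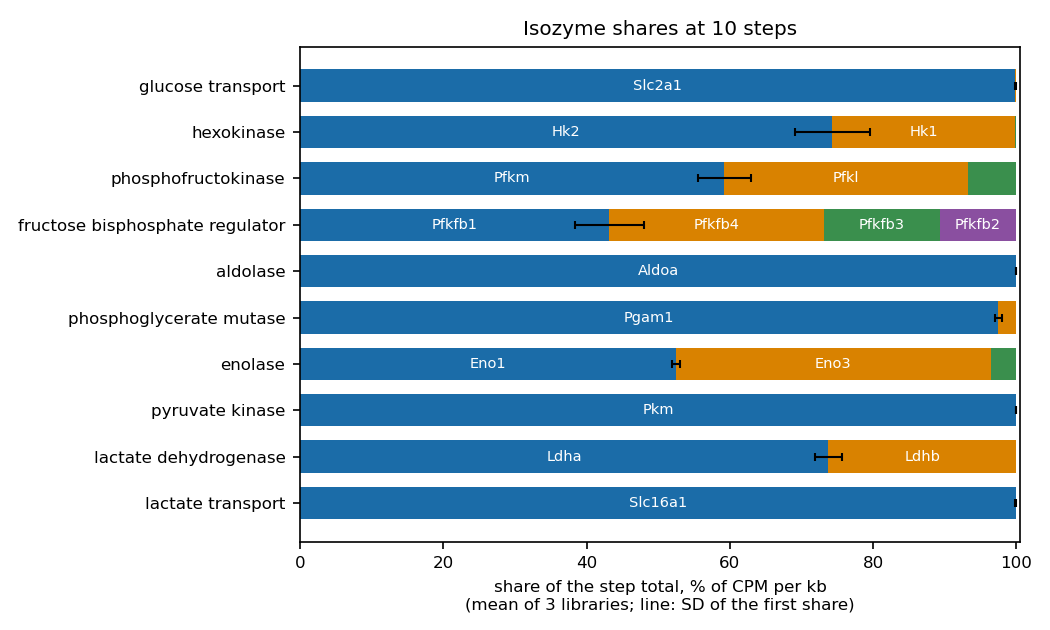
Share of each step's summed CPM per kb of merged exons held by each isozyme, as the mean of 3 IL-1 libraries, with a line for the SD of the first share. At glucose transport, aldolase, pyruvate kinase and lactate transport 1 gene fills almost the whole bar, whereas Eno1 and Eno3 split enolase nearly evenly on this scale.

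Of the 10 steps with more than 1 listed form, all 10 had the same leading isozyme in each of the 3 libraries per kb of merged exons. Phosphofructokinase was the exception under other lengths, as given above. An exact sign-flip test over 3 libraries cannot go below a two-sided p of 0.25, so the orders are given without a test.

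The oxidative arm of the pentose phosphate pathway, which makes NADPH, was present in full. G6pdx (chrX:74409483-74428880), its first and rate-limiting enzyme, had 222, 195 and 201 CPM. Pgd, which makes the second NADPH, had 193, 171 and 179, and both were highest in replicate 1. Pgls, the lactonase between them, was lower at 39.3, 45.5 and 47.3 CPM and lowest in replicate 1. G6pd2, an intronless relative of G6pdx with 199 shared words, had 2, 1 and 3 counts.

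In the non-oxidative arm, which interconverts sugar phosphates, levels per kb spanned a wide range. Taldo1, transaldolase, had 268, 286 and 275 CPM and the fifth highest level per kb of the members at 127 ± 4.03 (SD, n = 3). Rpe, the ribulose phosphate epimerase, had 147, 148 and 140.2 CPM, and Tkt, transketolase, 110.3, 100.3 and 102. Rpia, the isomerase that makes ribose 5-phosphate, was the lowest of all detected members at 1.97, 2.27 and 1.45 CPM, from 34, 41 and 27 counts. It shares no coding word with another locus. Per kb, Taldo1 was at 127 and Rpia at 0.354 ± 0.0768.

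Pyruvate enters mitochondria and is oxidized by pyruvate dehydrogenase, which Pdk kinases switch off. Pdha1, the E1 alpha subunit, had 308, 276 and 279 CPM, and the other subunits Pdhb and Dlat were at 117 ± 6.65 and 113 ± 7.23 CPM (SD, n = 3). Pdk1, the kinase known as a hypoxia target, had 7.24, 6.74 and 10.6 CPM, highest in replicate 3. The other kinases, which are not members, differed widely: Pdk4 was at 325 ± 30.9 CPM, Pdk3 at 93.7 ± 3.28 and Pdk2 at 2.92 ± 0.667. Per kb the order was Pdk4, Pdk3, Pdk1 and Pdk2, with Pdk4 at 92.6 ± 8.81, and with Pdk1 at 1.05 ± 0.270 and Pdk2 at 0.923 ± 0.211, which did not differ beyond their spread. Mpc1 and Mpc2, the subunits of the mitochondrial pyruvate carrier, were at 13.9 ± 3.04 and 77.8 ± 4.74 CPM.

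Across the 32 detected members, the per-kb order ran from Aldoa, Tpi1 and Ldha down to Pfkfb3, Pfkfb2 and Rpia. Of 31 neighbouring pairs in that order, 12 had overlapping ranges over the 3 libraries. Among these were Tpi1 and Ldha, Gpi1 and Eno1, Eno1 and Pdha1, Rpe and Gapdh, and Pfkfb1 and Pfkp. An overlap of ranges does not settle the order within a library. Some of the 12 pairs, such as Slc16a1 and Pgd, kept their order in every library, and others, such as Tpi1 and Ldha, did not.

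Between libraries, the members had a median coefficient of variation of 6.31%, beside 8.56% over all detected genes. Counting alone would give medians of 2.26% and 4.22%, since the members have more reads. Both observed medians lay above these, and the other genes were not matched to the members for level. Pdk1 (25.6%), Hk1 (24.7%), Pfkfb2 (23.3%), Rpia (21.7%) and Pfkfb3 (21.5%) varied most, and Eno3 (0.140%) and Slc2a1 (0.628%) least. Without replicate 1 the median over the members was 2.91%, and without replicate 2 it was 5.07%, beside 5.63% and 6.93% over all detected genes. Of the 32, 17 were highest in replicate 1, 6 in replicate 2 and 9 in replicate 3, against 45.7%, 27.1% and 27.3% of all detected genes. With TMM scaling factors these counts became 11, 11 and 10, against 37.5%, 34.5% and 28% of all detected genes. The median log2 ratio of a member to the mean of the other libraries was 0.04 in replicate 1 and -0.05 in replicate 2, beside 0.04 and -0.04 for all detected genes.

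Length moved with these differences. Across the 32 detected members, the log2 ratio of replicate 1 to the other libraries had a Spearman correlation of 0.39 with the length of the coding mRNA, and that of replicate 2 had one of -0.45. Across 10698 detected genes the values were 0.36 and -0.29. These are descriptions across genes, which share their libraries and are not independent. Hk1, Pfkl, Pkm and Slc16a1, all with a coding mRNA over 2 kb, had log2 ratios of 0.46, 0.40, 0.26 and 0.23 in replicate 1 and -0.61, -0.27, -0.21 and -0.38 in replicate 2, while the short Tpi1 had -0.12 and 0.09. These genes were picked after their values were seen, and not all long members moved this way: Pdk1, with a coding mRNA of 5185 bases, had -0.24 in replicate 1 and -0.38 in replicate 2, and Hk2, the longest, had 0.14 and 0.10. The part of length in these differences was not tested.

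**Figure D4:**
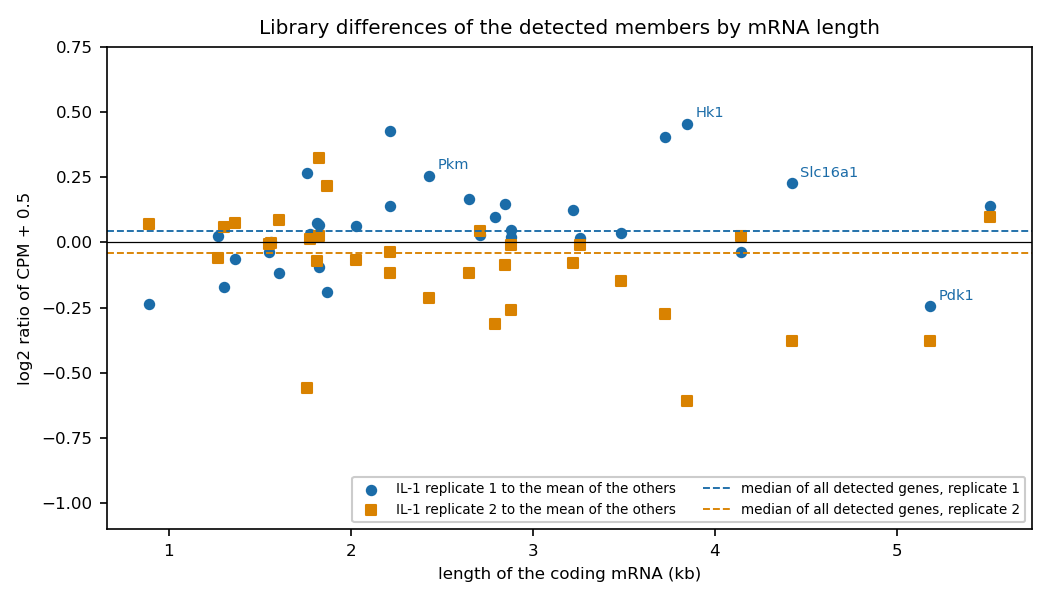
Log2 ratio of CPM + 0.5 of replicate 1 (circles) and replicate 2 (squares) to the mean of the other libraries, against coding mRNA length in kb, for the 32 detected genes, with dashed lines at the medians of all detected genes (0.04 and -0.04). Hk1 and Slc16a1 lie high in replicate 1 and low in replicate 2, whereas the long Pdk1 lies low in both.

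Isozymes typical of germ cells, liver and other tissues, were listed with related enzymes. Of 21 matched genes on that list, 6 reached 1 CPM in every library, against 41.3% of all gene IDs and 51.1% of the protein-coding ones. Tktl2, a transketolase-like gene, had no count in any library, which allows up to 0.0556 CPM over the 3 together. The testis forms Ldhc, Gapdhs and Pgk2 had 2, 1 and 1 counts over the 3 libraries. Minpp1, an inositol phosphate phosphatase, was highest at 42.2 ± 0.354 CPM per kb, followed by H6pd, the glucose 6-phosphate dehydrogenase of the endoplasmic reticulum, at 5.32 ± 0.763, and by the transporter gene Slc2a6 at 4.93 ± 0.550. Tigar, a phosphatase that lowers fructose 2,6-bisphosphate, was at 9.70 ± 1.56 CPM.

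Pathways that leave from or feed into glycolysis were represented to different degrees, beside the same background of 41.3% of all gene IDs. The TCA cycle list also held relatives of the cycle enzymes, such as the cytosolic Mdh1 and the NADP-linked Idh2. All 22 genes on it reached 1 CPM, led per kb by Mdh2 at 334 ± 12.1, Mdh1 at 165 ± 11.3 and Idh2 at 129 ± 4.62. Of 14 genes of the pyruvate dehydrogenase complex and pyruvate and lactate carriers, 12 did, with Bsg at 478 ± 27.3 per kb, Pdk4 and Dld (70.6 ± 1.34) highest. Of 19 gluconeogenesis and glycogen genes, 12 did: Pck2, mitochondrial PEP carboxykinase, was at 46.4 ± 2.94 per kb, Pgm2 at 43.9 ± 0.602 and G6pc3 at 40.6 ± 2.36. The liver and muscle enzymes that reverse glycolysis were near 0, with 1 count of Fbp1, 1 of Fbp2 and 2 of G6pc over the 3 libraries, and Pygl, liver glycogen phosphorylase, had none. Of 16 genes of the glycerol, serine and hexosamine branches, 14 did, led by the serine synthesis genes Psat1 at 408 ± 7.42 per kb and Phgdh at 176 ± 10.3, with Shmt2, which turns serine into glycine, between them at 270.0 ± 5.28.

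Regulators of the pathway were mostly detected. Of 18 HIF pathway genes and hypoxia targets, 16 reached 1 CPM in every library. The share was 41.3% over all gene IDs and 51.1% over the protein-coding ones. Hif1a was at 281 ± 19.3 CPM (47.7 ± 3.27 per kb), while Epas1, which encodes HIF-2α, had 3 counts, all in replicate 1. P4ha1, a collagen prolyl hydroxylase, led the list at 111 ± 2.60 per kb, and Bnip3l was at 41.3 ± 0.568. The other listed targets spread widely, from Ndrg1 at 185 ± 2.83 CPM through Kdm3a at 55.1 ± 3.36, Vegfa at 26.6 ± 1.40 and Egln3 at 3.03 ± 0.539 down to Car9 at 0.427 ± 0.0385 CPM (SD, n = 3). Of 17 other regulators, 15 did, led by Myc at 202 ± 14.3 per kb, Trp53 at 85.9 ± 5.02 and Txnip, an inhibitor of glucose uptake, at 34.6 ± 1.71.

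Promoters of the members were searched for ACGTG, a form of the core letters to which HIF binds, on either strand (as CACGT on the other). Other forms of the core were not searched. The match overlaps the E-box CACGTG, which counts on both strands. In RefSeq windows of 300 bases (GRCm38.p6, 250 before and 50 after each start), 14 of 32 detected members held it in at least 1 window, or 43.8%, against 30.2% of 8895 detected genes and 21.8% of 27025 genes with a window, counted the same way; of all 32851 single windows, 19.6% held it. A gene with more windows has more chances of a match, and members had from 1 (Slc2a1) to 4 (Pfkm). The number of windows was not matched between members and other genes. The median GC content of the windows was 60.3% for the detected members and 61.0% for detected genes. Stretches of 60 bases from before the start are shown for Slc2a1, Pgk1 and Ldha, which represent uptake, ATP production and lactate formation, with matches in capitals:
Slc2a1: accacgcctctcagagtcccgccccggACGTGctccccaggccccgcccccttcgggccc
Pgk1: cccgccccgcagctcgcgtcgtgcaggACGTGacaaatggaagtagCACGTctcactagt
Ldha: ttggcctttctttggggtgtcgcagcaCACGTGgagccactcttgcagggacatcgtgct
They lie on the plus strand at chr4:119108682-119108741, chrX:106186923-106186982 and chr7:46845632-46845691. Among members that share a step, Ldha held a match and Ldhb did not, Hk1, Hk2 and Hk3 all did, and none of the enolases did. A match is a run of letters and shows no binding, and the lack of a match does not show that a HIF core is absent.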

How the data were processed

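The deposited tables hold raw counts per Entrez gene ID. The submitters' processing notes name CASAVA, STAR, featureCounts and the mm10 build. For tool versions, annotation, strand setting, read length and reads with several matches, settings were not given in the sources used here. Lysate, per the labels' protocols, was reverse transcribed without RNA extraction and pre-amplified for 10 cycles, with no molecular identifiers mentioned, so counts are reads. The 9 tables labelled LPS, PAM and media equalled that of IL-1 replicate 3 and were left out.

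CPM used each library's total. A count of 0 allows 3 counts, or 0.161 to 0.174 CPM in 1 library. Detected means at least 1 CPM in every library. Symbols were read from RefSeq (GRCm38.p6), whose table held 25275 of the 27179 IDs; merged exon, transcript and coding lengths came from GENCODE M21. The coding mRNA is the transcript with the longest coding sequence. Shared words are exact 50-base matches outside the gene's locus; the length of 50 was chosen for this work. The spread estimate and the word search were tested on simulated data. TMM and RLE factors came from edgeR 4.0.16 (R 4.3.3); Python 3.11.15 and Biopython 1.88 were used. Every member is named; from other lists, the 3 highest per kb, those without a count and genes fixed by name; some of these are not reported here. The markers and the genes Eno1b, G6pd2, 3000002C10Rik, Epas1, Ndrg1, Kdm3a, Vegfa and Car9 were named to describe a result or after their values were seen. Members and lists were chosen with earlier results of these data known.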

Additional observations from a re-analysis of the deposited data

How the results depend on the processing

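No paired analysis was possible because the tables of the other groups repeat 1 IL-1 library. The alternative that needed unique 50-base words in the genome was not run, since only transcripts were used; lengths from the coding mRNA and from unshared transcript positions were added after the data were seen. With TMM factors 11 detected members were highest in replicate 1 and 11 in replicate 2, and with RLE factors 11 and 11, in place of 17 and 6; the TMM factors were 1.02, 0.983 and 0.998 for replicates 1 to 3. The median log2 ratio changed sign around 0 for replicate 1 (-0.00024 with RLE) and replicate 3 (0.0019 with TMM, 0.0026 with RLE). The ratio of Pfkm to Pfkl changed sign without length correction (log2 -0.20), and 9 of 10 steps then had 1 leader, as with the longest transcript, the coding mRNA and its unshared positions. The median coefficient of variation of the members was 5.50% with TMM, 5.54% with RLE, 6.05% at a level of 5 CPM, and 2.91% to 6.69% without 1 library. Scaling, level and left-out libraries kept the counts of detected members, of steps with 1 leader and of each pathway list within 1.5 times; of the marker lists, muscle fell from 2 to 1 and leukocyte from 4 to 2 at 2 CPM. For steps with 1 leader this could not fail, since scaling multiplies all genes of a library alike and each leader led in every library. Of 90 recomputed isozyme ratios, 56 moved by less than the spread between libraries, 33 moved by more and 1 reversed. The 56 include ratios with TMM factors, where the factor of a library nearly cancels, and ratios without 1 library. They therefore do not show how far the ratios hold under other lengths. Depth limits statements on the 7 members below 1 CPM.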
